A study of Mus musculus with 5 samples.

Results

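The Ikaros family of zinc finger transcription factors was followed probe by probe in whole mouse colon after injection of NT-3N, which activates the receptor for IL-11. The 5 genes were Ikzf1 (Ikaros), Ikzf2 (Helios), Ikzf3 (Aiolos), Ikzf4 (Eos) and Ikzf5 (Pegasus), out of 22911 genes that could be named on the array. They were represented by 12 of 56605 probes, each kept separate: 3 for Ikzf1, 1 for Ikzf2, 3 for Ikzf3, 4 for Ikzf4 and 1 for Ikzf5. The family was chosen by its log2 differences between NT-3N and Control on these same arrays, among which Ikzf4 probes did not move together. Those differences are therefore a description, and no test is drawn from them.

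Labelled RNA of each colon was hybridised to a single-colour Agilent array. The labels give 2 Control arrays and 3 NT-3N 3 hr arrays, all from wild-type C57BL/B6 mice, and the study describes 8-week-old animals. The NT-3N mice were injected intravenously and the colon was taken 3 h later, while the Control mice are described as untreated, so the effect of the injection itself and that of the agonist cannot be told apart. NT-3N is described as a modified human IL-11. The amount injected differs in unit between the sources used here and is not given.

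Ikaros family proteins bind DNA through a set of zinc fingers near their amino terminus and join each other through a second set at the carboxyl terminus. Ikaros, Helios and Aiolos are best known in lymphocytes, where they recruit chromatin remodelling and deacetylase complexes to their target genes. Eos is known as a partner of Foxp3 in regulatory T cells. Pegasus is the most divergent member and is expressed in many tissues.

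Each array had 70.6% to 72.9% of its probes well above background. Of 41590 tested probes, 70 (0.168%) differed at an adjusted p under 0.05 in limma. Across probes the 2 Control arrays correlated at 0.982, in a range from 0.978 to 0.992 over all pairs of arrays. The labelled tissue was borne out by its markers. All 10 epithelial and all 8 smooth muscle markers were well above background on all 5 arrays. Since whole colon mixes many cell types, fewer cells of a type and less RNA per cell cannot be told apart in any value given here. Of the 12 family probes, 11 were also well above background on all 5 arrays and were tested. The other, Ikzf1 probe A_55_P2741959 (accession NM_001301868), was not well above background on any array, so it has no measured level.

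Ikzf4 gave different pictures depending on the probe read. With NT-3N, 2 of its 4 probes were more than 3-fold brighter and the other 2 were not. All 4 carry the same accession, NM_011772, and each was printed as 1 spot, so the scanner files do not distinguish them by transcript. Signals are given below as quantile-normalized log2 values, which can be compared between arrays for a probe but not between probes.

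Probe A_55_P1979674 of Ikzf4 read 7.19 and 7.43 in Control replicates 1 and 2, and 8.94, 9.12 and 9.09 in NT-3N replicates 1 to 3. Every NT-3N array was higher than both Control arrays, with a wide gap between the groups. The Control mean was 7.31 ± 0.16 (SD, n = 2) and the NT-3N mean 9.05 ± 0.099 (SD, n = 3), a log2 difference of 1.74 with a standard error of 0.13, or 3.34-fold. Before scaling between arrays the same spot had a processed signal of 134.8 and 177.1 in Control and of 429.7, 642.2 and 574.2 in NT-3N.

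Probe A_55_P2119917 of Ikzf4 read 6.56 and 6.997 in Control and 8.47, 8.79 and 8.81 in NT-3N. Again the groups did not overlap. The means were 6.78 ± 0.31 (SD, n = 2) and 8.69 ± 0.19 (SD, n = 3), a log2 difference of 1.92 with a standard error of 0.18, or 3.78-fold. Its processed signal was 87.6 and 131.2 in Control and 313.8, 511.1 and 472.0 in NT-3N.

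Probe A_51_P445117 of Ikzf4 read 7.37 and 7.31 in Control and 7.38, 6.49 and 7.06 in NT-3N. NT-3N replicate 1 lay above both Control arrays while the other 2 NT-3N arrays lay below them, so the groups overlapped. The log2 difference was -0.36 with a standard error of 0.26, and was -0.12 without NT-3N replicate 2, the lowest array.

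Probe A_55_P2743984 of Ikzf4 read 5.93 and 6.27 in Control and 5.91, 6.05 and 6.27 in NT-3N. The arrays of the groups were interleaved. The log2 difference was -0.022 with a standard error of 0.20, and its sign depended on which array was left out: it was -0.19 when Control replicate 1 was removed and 0.15 when Control replicate 2 was. This was the dimmest of the 4 spots, with processed signals from 54.9 to 79.6, yet it was well above background on all 5 arrays.

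After each probe's own mean was subtracted, A_55_P1979674 and A_55_P2119917 differed over the 5 arrays by a root mean square of 0.12 on the log2 scale. Against A_51_P445117 these 2 probes differed by 1.09 and 1.19, and against A_55_P2743984 by 0.87 and 0.95. These distances come from the same values for which Ikzf4 was chosen and only describe them.

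**Figure D1:**
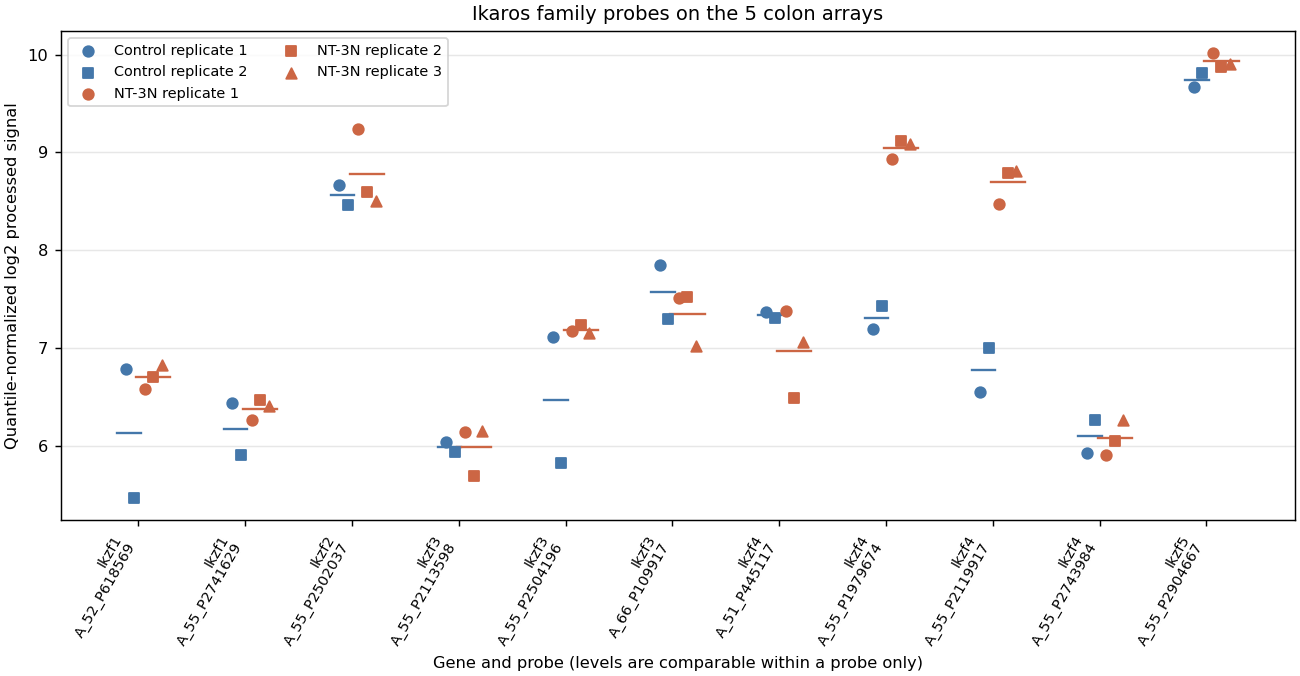
Quantile-normalized log2 processed signal (vertical axis) of the 11 tested Ikaros family probes (horizontal axis) on 2 Control (blue) and 3 NT-3N (orange) arrays; marker shapes give the replicate and horizontal lines the group means. Ikzf4 probes A_55_P1979674 and A_55_P2119917 lie between 8.47 and 9.12 on the NT-3N arrays and at 7.43 or below on the Control arrays, while the groups overlap for 7 of the other probes and lie apart for Ikzf3 probe A_55_P2504196 and the Ikzf5 probe.

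The size of the disagreement can be set against other genes. Among 5957 genes with at least 2 probes well above background on all 5 arrays, the span between the highest and lowest log2 difference of a gene's probes had a median of 0.11. It was 2.28 for Ikzf4, and 8 of these genes, or 0.134%, had a span at least as large, Ikzf4 included. Genes with more probes have wider spans: of the 197 with 4 such probes the median span was 0.22, and Ikzf4 was the 1 gene to reach 2.28. When dimmer probes were counted too, so that 6407 genes had at least 2 tested probes, 49 genes (0.765%) had a span at least as large, 4 of them among the 220 genes with 4 tested probes. For Ikzf3 the span was 0.94, and for Ikzf1 it was 0.37.

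In the stricter count the 7 genes with a wider span than Ikzf4 were Rab29, Camk2d, Ascc1, Evi5, Clip1, Nsf and Gm14296, named after their values were seen. Of their probes 0 passed an adjusted p of 0.05 in limma. A probe passed in 21 of the 6407 genes with at least 2 tested probes, and Ikzf4 was the 1 gene among these 21 where another tested probe had the opposite sign. Ikzf4 was chosen for this disagreement, so its place in these counts is a description. Opposite signs as such were common, with 1983 of the 6407 genes, or 31.0%, having probes on either side of 0.

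**Figure D2:**
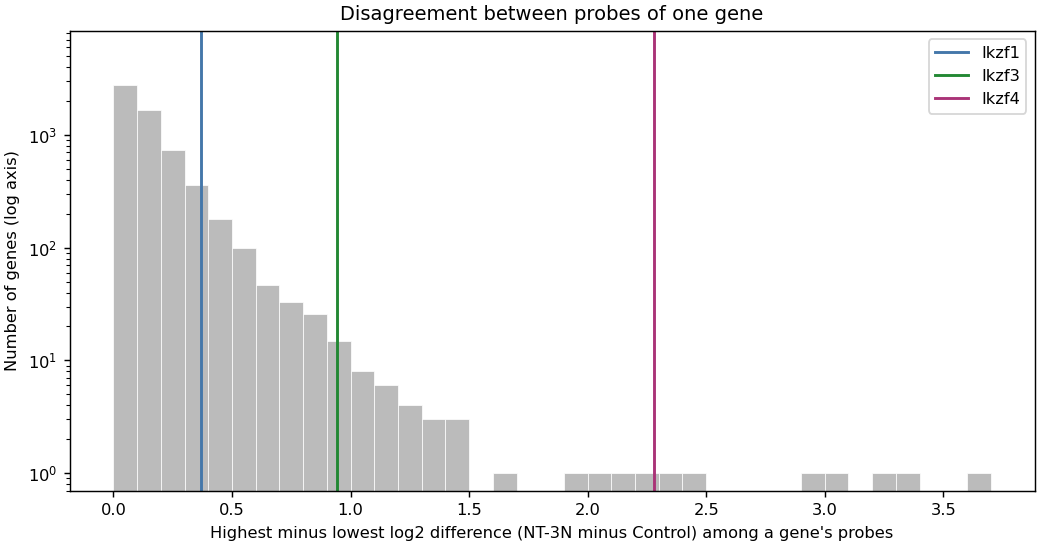
Number of genes (log axis) by the span between the highest and lowest log2 difference, NT-3N minus Control, of their probes, over 5957 genes with at least 2 probes well above background on all 5 arrays, in bins of 0.1. The median is 0.11, and coloured lines mark Ikzf1 at 0.37, Ikzf3 at 0.94 and Ikzf4 at 2.28.

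Of the 11 tested family probes, 2 were called higher by limma, the rising Ikzf4 pair, and 0 were called lower. Of all tested probes, 0.130% were called higher and 0.0385% lower. Both calls were lost in 6 of 15 processing alternatives, among them the fit with a replicate block and those without Control replicate 1, NT-3N replicate 2 or NT-3N replicate 3. Since this contrast chose the family, nothing is read from that count. Groups did not overlap with NT-3N higher for 4 of the 11 probes, against 13.5% of all tested probes, and with NT-3N lower for 0, against 14.7%. The 4 were the Ikzf4 pair, Ikzf3 probe A_55_P2504196 and the Ikzf5 probe. The median log2 difference was 0.21 over the 11 probes and -0.017 over all tested probes. The overlap counts and this median also rest on the contrast that chose the family, so nothing is read from them either.

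The genes whose pattern was most like the rising Ikzf4 pair were searched over 24302 other named probes well above background on all 5 arrays. Likeness was the root mean square difference of mean-centred log2 values over the 5 arrays, smaller being closer. Closest to A_55_P1979674 were Tifa, an adaptor in NF-kB signalling (0.062), Ifitm1, an interferon-induced membrane protein (0.067), Osmr, a receptor subunit for oncostatin M (0.11), the serine protease inhibitor gene Serpina3j (0.11) and Timp1, an inhibitor of metalloproteinases (0.13). Closest to A_55_P2119917 were Ifitm1 (0.15), the cholesterol hydroxylase gene Ch25h (0.15), the small GTPase gene Gem (0.18), Tifa (0.18) and Osmr (0.18). Ifitm1, Tifa and Osmr were named for both, Osmr through a different probe each time. The search used the values for which Ikzf4 was chosen. With 2 Control and 3 NT-3N arrays, closeness largely reflects a step of like size between the groups. The matched probes had log2 differences from 1.54 (Serpina3j) to 2.14 (Gem). Shared regulation was not tested.

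The other pair had other neighbours in pattern. A_51_P445117, which was lowest in NT-3N replicate 2, was closest to Olfr951 (0.060), the complement gene C2 (0.063), Ssu2 (0.069), 1810012K16Rik (0.084) and Sgo2b (0.087). A_55_P2743984 was closest to Intu (0.025), Pcgf6 (0.027), Ccdc157 (0.028), Morn2 (0.029) and Alms1 (0.031), all with log2 differences between -0.066 and 0.009. A probe that varies little lies close to any other probe that varies little, so these smaller distances do not mean a closer match than those of the rising pair.

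Probes of genes beside Ikzf4 on the chromosome were measured independently of the choice of the family. Of the 5 nearest genes on each side in RefSeq (assembly GRCm38.p6), 5 had tested probes, and 0 of their 6 probes passed an adjusted p of 0.05 or an unadjusted p of 0.05 in limma. Rps26, a ribosomal protein gene and the nearest neighbour on one side, had a log2 difference of 0.072 with a 95% interval from -0.10 to 0.25. Suox, which encodes sulfite oxidase and lies on the other side, had 0.15, with an interval from -0.23 to 0.54. The growth factor receptor gene Erbb3 had 0.14 (-0.38 to 0.66) and Pa2g4, whose product binds ErbB3, 0.19 (-0.11 to 0.50).

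The last of these neighbours, Rab5b, a GTPase of early endosomes, had log2 differences of -0.0066 (-0.23 to 0.21) and -0.14 (-0.59 to 0.32) on its 2 probes. Every one of these 6 intervals ends below the 1.74 and 1.92 of the rising Ikzf4 pair. Those values were among the ones that chose the family, so this only describes them. The -0.022 of Ikzf4 probe A_55_P2743984 lay within all 6 intervals. The -0.36 of A_51_P445117 lay within those of Erbb3 and of the lower Rab5b probe. The lncRNA genes Gm26876 and Gm51824, which come next after Ikzf4 on one side, were matched to no probe, so they were not analysed here.

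**Figure D3:**
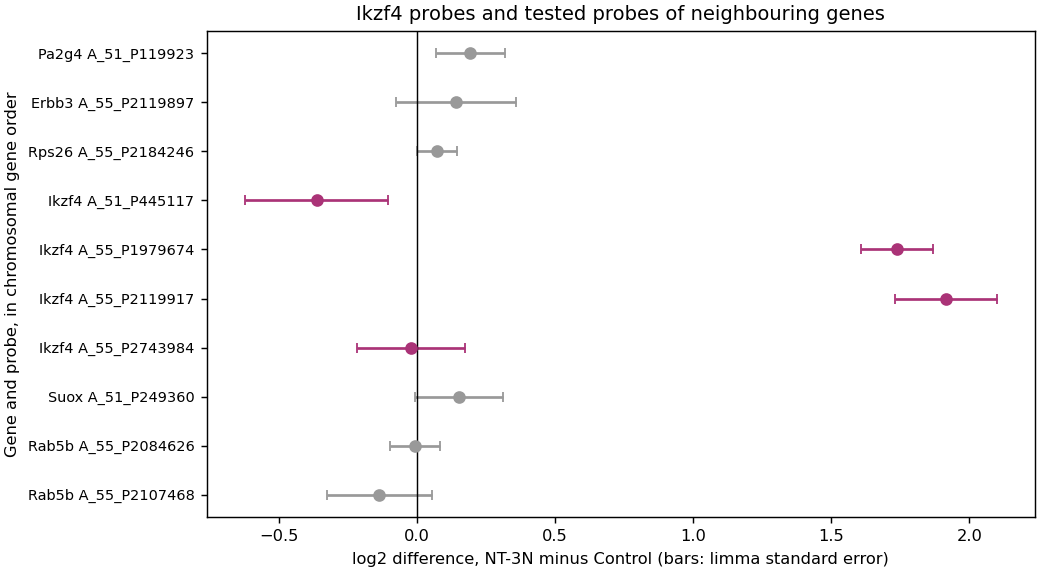
log2 difference, NT-3N minus Control (horizontal axis), of the 4 Ikzf4 probes (purple) and the 6 tested probes of neighbouring genes (grey), in chromosomal gene order from top to bottom; points are differences of group means of 2 and 3 arrays and bars limma standard errors. The neighbours lie between -0.14 and 0.19, the rising Ikzf4 pair at 1.74 and 1.92 and the other Ikzf4 probes at -0.36 and -0.022.

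Ikzf1 encodes Ikaros, which is needed for lymphocyte development. Its probe A_52_P618569 (NM_001025597) read 6.79 and 5.47 in Control and 6.59, 6.70 and 6.83 in NT-3N. Control replicate 2 was low and the other 4 arrays were alike. The log2 difference of 0.58, with a standard error of 0.37, fell to -0.080 once Control replicate 2 was left out and rose to 1.23 once Control replicate 1 was. Probe A_55_P2741629, with the same accession, read 6.44 and 5.91 in Control and 6.26, 6.47 and 6.40 in NT-3N. Here too Control replicate 2 was the lowest array, and the log2 difference went from 0.21 to -0.063 without it.

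Ikzf3 encodes Aiolos, which acts in B cell maturation. Its 3 probes share the accession NM_011771 and did not move together. Probe A_55_P2504196 read 7.11 and 5.82 in Control and 7.17, 7.24 and 7.15 in NT-3N. As for Ikzf1, Control replicate 2 stood apart, and the log2 difference of 0.72 (standard error 0.35) was 0.077 without it.

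The other Ikzf3 probes had their lowest values on other arrays. Probe A_66_P109917 read 7.85 and 7.29 in Control and 7.51, 7.52 and 7.02 in NT-3N, with the lowest value in NT-3N replicate 3 and a log2 difference of -0.22 (standard error 0.24). Control replicate 2 was again below Control replicate 1, and the difference was -0.50 once Control replicate 2 was removed, 0.057 once Control replicate 1 was and -0.057 once NT-3N replicate 3 was. Probe A_55_P2113598 read 6.05 and 5.94 in Control and 6.14, 5.69 and 6.15 in NT-3N, a log2 difference of 0.0030 (standard error 0.21). For these 2 probes the groups overlapped.

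Ikzf2 encodes Helios, found in regulatory T cells. Its probe A_55_P2502037 (NM_011770) read 8.67 and 8.46 in Control and 9.24, 8.60 and 8.50 in NT-3N. NT-3N replicate 1 was high and the other 4 arrays overlapped, and the log2 difference of 0.22 (standard error 0.23) became -0.015 without that array. Ikzf5, the widely expressed member, read 9.67 and 9.81 in Control and 10.01, 9.87 and 9.90 in NT-3N on probe A_55_P2904667 (NM_175115). The groups did not overlap but lay close, with a log2 difference of 0.19 (standard error 0.10) that ranged from 0.12 to 0.26 with each array left out.

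Marker lists gave the following levels, as the mean log2 signal of the tested genes on an array. The 12 B cell markers averaged 7.95 in Control replicate 1, 6.46 in Control replicate 2 and between 7.97 and 8.28 in NT-3N. The array with the lowest B cell mean was thus also lowest for both tested Ikzf1 probes and for Ikzf3 probe A_55_P2504196. It was not the lowest for every marker: Ms4a1 was lowest in Control replicate 1, Cd22 in NT-3N replicate 2 and Pax5 in NT-3N replicate 3. Of the 12 markers, 10 had a positive log2 difference, 0 were called, and their median of 0.88 was -0.16 without Control replicate 2. Ms4a1, which encodes CD20, read 4.95 and 6.53 in Control and 9.54, 9.13 and 9.51 in NT-3N, with an adjusted p of 0.056 in limma. The part of B cells in the Ikzf1 and Ikzf3 values was not tested.

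T cell markers did not separate the groups, with list means of 8.44 and 8.23 in Control and 8.28 to 8.57 in NT-3N. Control replicate 2 was thus the lowest array for this list as well. It was also lowest for the regulatory T cell genes below, with a mean of 7.23 against 7.25 to 7.60 on the other arrays. All 13 were tested, 8 with a positive difference, 0 were called, and the median log2 difference was 0.031. The part of T cells in the Ikzf1 and Ikzf3 values, and of T and B cells in the Ikzf4 values, was not tested.

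**Figure D4:**
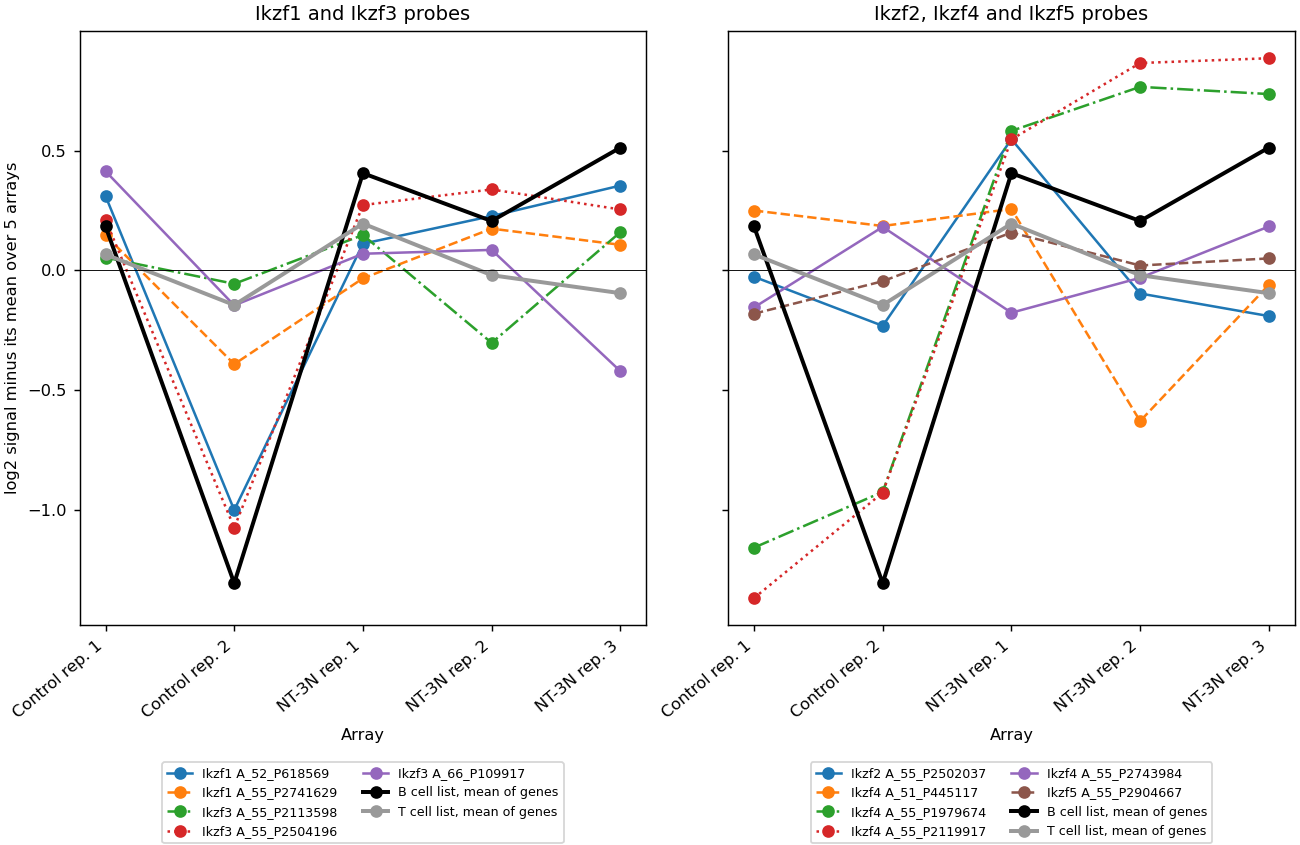
log2 signal minus its mean over the 5 arrays (vertical axis) on each array (horizontal axis) for Ikzf1 and Ikzf3 probes (left) and for Ikzf2, Ikzf4 and Ikzf5 probes (right), with the mean of the 12 B cell markers in black and of the 13 T cell markers in grey. Both Ikzf1 probes and Ikzf3 probe A_55_P2504196 are lowest in Control replicate 2, where the B cell mean is 6.46 before centring; the rising Ikzf4 pair is low on both Control arrays.

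Of 13 genes of regulatory T cells, the cells in which Eos is best known, 12 were tested, 9 had a positive difference and 0 were called, with a median log2 difference of 0.13. Foxp3, the defining factor of these cells, read 5.55 and 5.75 in Control and 6.02, 5.71 and 5.45 in NT-3N, so the groups overlapped. Among the 11 well above background on every array, the largest differences belonged to Tnfrsf18 (GITR), with 0.50 and an adjusted p of 0.48 in limma, and to Il2ra, the high-affinity IL-2 receptor chain, with 0.36 and 0.70. The dimmer Il10, an anti-inflammatory cytokine gene, had -0.63 and 0.74 and was named after its values were seen.

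Ikaros proteins act with corepressor and remodelling complexes. All 18 genes of such partners (NuRD, Sin3, CtBP and Smarca4) were tested, 8 with a positive and 10 with a negative difference. Of these 0 were called, and the median was -0.0025. The largest differences were 0.28 for the deacetylase gene Hdac2 and -0.28 for the remodeller gene Chd3, with adjusted p of 0.65 and 0.40 in limma. Of the 5 genes of the cereblon ubiquitin ligase, which degrades Ikaros and Aiolos in human cells exposed to thalidomide analogues, 0 were called. Cul4b had a log2 difference of 0.28 and Ddb1 of 0.11.

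Of 11 lymphoid genes known as Ikaros targets, 6 were tested, 3 with each sign, and 0 were called. Their median log2 difference was 0.056, and was -0.051 with the mean of a gene's probes and -0.23 without Control replicate 2. Igll1, Il2, Ptcra, Rag1 and Rag2 did not meet the filter on signal above background. Dntt, the terminal transferase of developing lymphocytes, read 6.86 and 6.85 in Control and 6.23, 6.26 and 6.05 in NT-3N, a log2 difference of -0.68 with an adjusted p of 0.24 in limma. The groups did not overlap for this gene. Cd8a had a log2 difference of 0.36.

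Among markers of other cells, 2 lists separated the groups in their means. Of the 9 neutrophil markers 5 were tested, with list means of 6.40 and 6.36 in Control and 7.57 to 8.37 in NT-3N. The median log2 difference of the 5 was 0.19, with 3 positive and 0 called, and Cxcr2, Ly6g, Ngp and Retnlg were not tested. The separation of the means came from S100a8 and S100a9, calcium-binding proteins abundant in neutrophils, named after their values were seen. Neither was well above background on all 5 arrays, so both passed the filter through part of the arrays. Which arrays these were is not given here. For each of these genes every NT-3N reading was above both Control readings. The filter was thus most likely met on NT-3N arrays, where both were high, and nothing is read from the separation. S100a8 read 2.57 and 2.51 in Control and 6.21, 4.28 and 5.15 in NT-3N, and S100a9 1.56 and 1.58 in Control and 8.58, 6.23 and 6.65 in NT-3N. The other 3 tested markers had log2 differences of 0.19 for Camp, -0.16 for Csf3r and -0.57 for Mpo. The 8 smooth muscle markers ran the other way, at 14.52 and 14.56 in Control and 13.90 to 14.25 in NT-3N, and all 8 had a negative difference, with a median of -0.35 and 0 called. The part of these cells in the Ikzf4 values was not tested. The enteric neuron and glia list held the 1 called marker of all the lists, Gfap, an intermediate filament of glia, with a log2 difference of 1.84 (limma adjusted p = 0.011). Median log2 differences were 0.071 for plasma cell, 0.0076 for macrophage, -0.029 for epithelial and 0.047 for fibroblast markers. With each array left out they ranged from -0.15 to 0.29 for plasma cell, from -0.069 to 0.16 for macrophage, from -0.051 to -0.040 for epithelial and from -0.079 to 0.23 for fibroblast markers. Single markers could lie far from these medians. In the fibroblast list, with 5 positive and 3 negative differences, Pdpn had 1.49 (limma adjusted p = 0.063). In the smooth muscle list Smtn had -0.88 (limma adjusted p = 0.059).

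Over the 15 alternatives, which include the 6 without the calls, the log2 difference ranged from 1.42 to 1.85 for A_55_P1979674 and from 1.48 to 2.14 for A_55_P2119917, the lowest with normexp background correction in both cases. It ranged from -0.57 to -0.12 for A_51_P445117 and from -0.19 to 0.15 for A_55_P2743984. In the log2 table that the authors deposited, the rising pair had 1.76 and 1.94, so the division among the 4 probes was present before the scanner files were processed here.

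**Figure D5:**
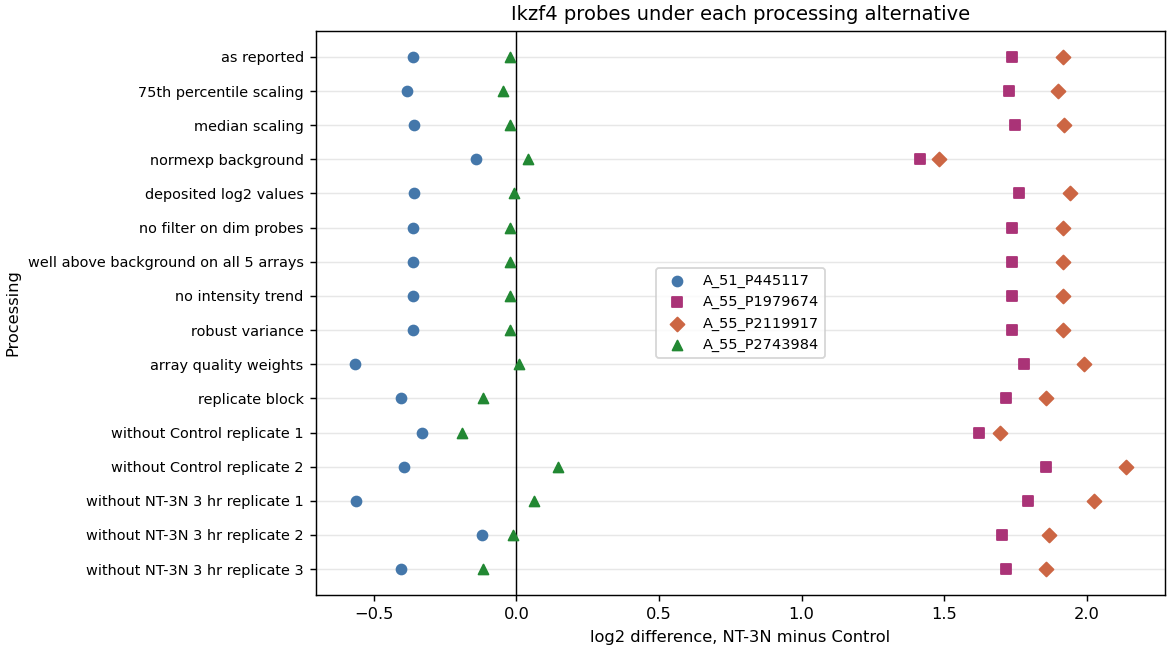
log2 difference, NT-3N minus Control (horizontal axis), of the 4 Ikzf4 probes as reported and under 15 processing alternatives (vertical axis). A_55_P1979674 and A_55_P2119917 stay at 1.42 or above in every row, and the other 2 probes at 0.15 or below.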

How the data were processed

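Whole-colon RNA of 5 mice was measured on Agilent SurePrint G3 arrays, all on 1 slide with 1 scan time. The authors extracted spots with Agilent Feature Extraction 11.0.1.1 (per the submitters' processing notes). The deposited scanner files hold intensity values that were background-subtracted but not scaled between arrays, with flags per spot. The authors also deposited log2 values of 37380 probes, which correlated at 0.99998 or more with the values computed here and served as an alternative.

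Outlier spots (69 to 184 of 59305 per array) were left out, and the log2 processed signal was averaged per probe and quantile-normalized. The methods also take logarithms and normalize by quantile, but their filter differs: it removes probes that carry Flag A. Probes well above background on at least 2 arrays were tested, each separately, with limma 3.58.1 in R 4.3.3 (lmFit, eBayes with trend, two-sided, Benjamini-Hochberg over 41590 probes), in place of the local-pooled-error test of the methods. Unversioned accessions were matched to RefSeq (GRCm38.p6), naming 32994 of 56605 probes; since the array design names a different build, coordinates are left out. Lists used the brightest probe of a gene. Named were all family probes, the 5 genes closest in pattern to each Ikzf4 probe, all tested Ikzf4 neighbours, and any called neighbour. For the lists the rule was to name called members, or otherwise the 2 with the largest difference. In several lists fewer of these are named here. The members, lists and rules were chosen with earlier results of these data known; other genes were named after their values were seen. The fit was tested on simulated data. P-values measure the spread between these arrays, whose number limits the precision.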

Additional observations from a re-analysis of the deposited data

How the results depend on the processing

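The counts of 54 probes called higher and 16 called lower depended on many choices. They were 5 and 1 with no filter on dim probes, 3 and 0 with no intensity trend, and 156 and 68 with array quality weights. The lower count was 9 with median scaling and 26 with robust variance. Leaving out 1 array at a time gave 0 to 174 higher and 0 to 25 lower probes: NT-3N replicate 3 left 0 and 0, NT-3N replicate 2 left 1 and 0, NT-3N replicate 1 left 78 and 25, Control replicate 1 left 41 and 1, and Control replicate 2 left 174 and 6 when removed. Whether the replicate numbers pair the mice is not stated in the labels. Between Control and NT-3N arrays of the same number, departures from each group's mean had correlations of 0.12 and 0.035. The departures of the 2 Control arrays mirror each other, so these values are not independent and cannot decide whether the mice were paired. With the replicate block 0 probes were higher and 0 lower, with 3176 at an unadjusted p under 0.05 in limma; NT-3N replicate 3 has no partner and adds nothing there. The 2 Ikzf4 calls were both lost with no filter, with no trend, with the block, and without Control replicate 1 or NT-3N replicate 2 or 3, and both kept in the other 9 alternatives. The cause was not tested. The count of 1 called gene with a probe of opposite sign was also 1 with probes well above background on all 5 arrays. All 4 Ikzf4 probes meet that filter and the calls of the main fit were kept, so Ikzf4 could not drop out. The count was not taken in the alternatives that lost both Ikzf4 calls.

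Among the 9 other family probes, the signs of the log2 difference turned without Control replicate 2 for both Ikzf1 probes, without Control replicate 1 for Ikzf3 probe A_66_P109917 (0.057) and without NT-3N replicate 1 for Ikzf2. The differences of Ikzf3 probe A_55_P2113598 and Ikzf4 probe A_55_P2743984, both near 0, kept their sign in 5 and 9 of 13 alternatives. Those of Ikzf3 probe A_55_P2504196, Ikzf5 and Ikzf4 probe A_51_P445117 did not turn. A block for slide or scan could not be fitted with 1 of each.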
